A study of Mus musculus with 24 samples.

Results

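A set of 10 genes of the Wnt system is described here in pancreatic stellate cells (PSC), namely the Wnt ligand genes Wnt2, Wnt4, Wnt5a, Wnt5b and Wnt9a, the secreted antagonist genes Sfrp1, Sfrp2, Dkk2 and Dkk3, and Axin2, a target gene of the pathway. The genes were listed by name, with earlier results of these data known, and all 10 were found among the 53801 genes listed. PSC of wild-type C57BL/6J mice aged 7 to 10 weeks, isolated from 4 to 10 pooled pancreata, were grown on a membrane with 1 µm pores, either alone (control PSC) or in co-culture with KPC cells, a single line of murine pancreatic cancer cells from a p48-Cre tumour model mouse. In standard co-culture, which the labels call distant, the KPC cells lay at the bottom of the well. In inverse co-culture, which the labels call close, they were attached to the underside of the membrane that carried the PSC. Each model was sampled at 24 h and 72 h with its own control PSC, which gave 8 groups of 3 libraries. PSC and KPC cells coexisted for up to 72 h in the standard and up to 96 h in the inverse model, where coexistence began 24 h before time zero. Per the paper, PSC and controls of the standard model were changed to the experimental medium at time zero, and those of the inverse model were seeded in it. The RNA input was 450 ng in the standard and 120 ng in the inverse model. Model, coexistence, earlier medium and RNA input therefore cannot be told apart.

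Wnt proteins are secreted lipid-modified ligands that bind Frizzled receptors. Canonical signalling runs through the co-receptors LRP5 and LRP6 to β-catenin and TCF/LEF factors, and other branches run through ROR and RYK receptors. Secreted Frizzled-related proteins (SFRP) bind Wnt proteins outside the cell, DKK2 binds LRP5 and LRP6, and DKK3 is a divergent member of its family. AXIN2 is a scaffold of the complex that degrades β-catenin, and its gene is switched on by canonical signalling, so that it is widely read as a sign of pathway activity. Fibroblasts and stellate cells are known as a source of Wnt ligands and antagonists in pancreatic tissue.

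Values are FPKM, fragment counts scaled to gene length and library size. The 24 libraries held between 15932737 and 24798761 counted fragments, and between 12277 and 13307 genes lay above 1 FPKM. The cells carried the markers of fibroblasts and stellate cells, with 11 of 12 of these markers above 1 FPKM in at least 1 library of each group. Gfap, a defining stellate cell marker, was the exception, with at most 11 fragments in a library. Replicate 1 stood apart in all 4 standard groups. It was the lowest of the 3 libraries in all 4 of these groups for 4 of the 10 members (Wnt5b, Wnt9a, Sfrp1 and Sfrp2) and for 17.6% of all genes above 1 FPKM in at least 3 libraries. The study's methods call the replicates biological, and neither they nor the labels say whether each was a separate isolation of cells.

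Wnt5a, a ligand best known for signalling without β-catenin, had by far the highest FPKM of the ligand genes. It ranged from 52.6 to 120 FPKM over the 24 libraries and made up between 73.9% and 84.1% of the summed FPKM of all 19 mouse Wnt ligand genes. Wnt4 followed with 2.35 to 13.8 FPKM, and Wnt5b, Wnt9a and Wnt2 reached at most 5.20, 7.49 and 2.57 FPKM. Of the 14 ligand genes that are not members, Wnt2b, Wnt11 and Wnt16 rose above 1 FPKM in at least 18 libraries, and the other 11 stayed below 1 FPKM in every library. Among the secreted antagonists, Sfrp1 with 14.98 to 280 FPKM, Dkk3 with 45.7 to 147 FPKM and Sfrp2 with 5.11 to 140 FPKM made up between 69.4% and 96.4% of the summed FPKM of 14 antagonist genes. Dkk2 reached at most 4.12 FPKM, and Axin2 lay between 2.32 and 17.1 FPKM. In GRCm38 the genes that the results turn on lie at chr14:28504750-28527448 on the plus strand (Wnt5a), chr6:119432531-119544347 on the minus strand (Wnt5b), chr11:59306928-59333552 on the plus strand (Wnt9a), chr7:112116017-112159057 on the minus strand (Dkk3), chr8:23411502-23449632 on the plus strand (Sfrp1), chr3:83766321-83774316 on the plus strand (Sfrp2) and chr11:108920349-108950783 on the plus strand (Axin2), and the fragments were counted over their exons. The ranks rest on the gene lengths behind the deposited values, which for Wnt5a (2293 of 7823 bases), Sfrp2 (995 of 2153 bases) and Axin2 (1700 of 5506 bases) were far shorter than the summed exons of GENCODE M21. The exons of these same 3 genes also overlap a gene on the opposite strand by 358, 347 and 209 bases. The paper gives default settings for the counting and does not state that strand was used.

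**Figure D1:**
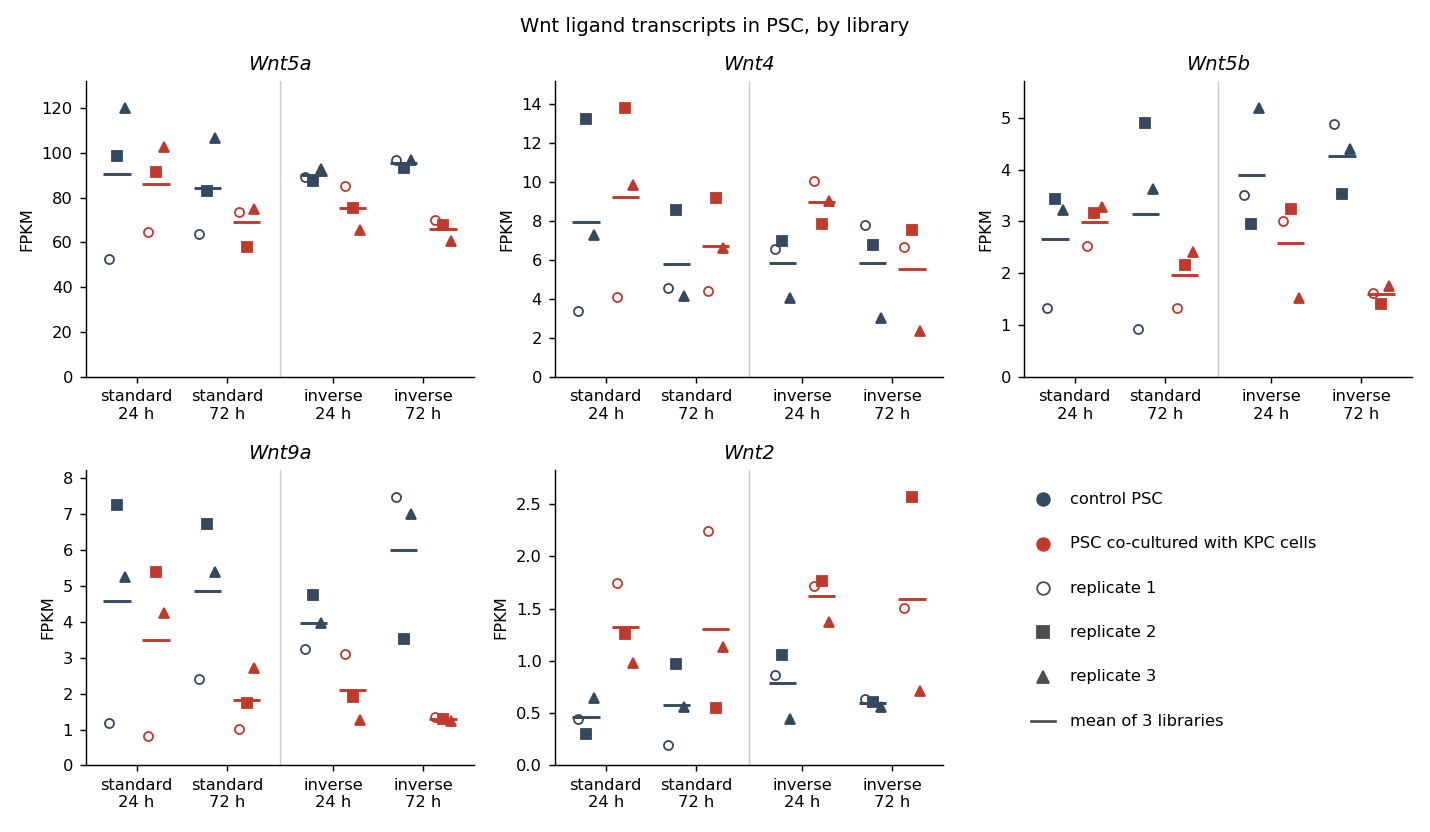
FPKM of the 5 ligand genes in each of the 24 libraries, by model and time, with control PSC in dark blue, co-cultured PSC in red, marker shape for the replicate number and a line for the mean of 3 libraries. Every axis starts at 0 and has its own scale. At 72 h of inverse co-culture, the Wnt5a, Wnt5b and Wnt9a points of co-cultured PSC lie below all control points.

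Promoter windows of 250 bases before and 50 bases after the RefSeq start (GRCm38.p6) were found for 7 members, with 3 windows for Wnt5b. Shown are the windows of the 2 ligand genes with the largest fall, Wnt9a and Wnt5b, and that of the target gene Axin2, on the strand of the gene. Capitals mark matches on either strand to the TCF/LEF core CTTTGA, its second form written CTTTGT, the AP-1 letters TGANTCA, the GC box GGGCGG, the CCAAT box, the TATA box TATAAA and the E-box CACGTG, and a stretch in capitals may join overlapping matches.
Wnt9a, chr11:59306680-59306979, plus strand: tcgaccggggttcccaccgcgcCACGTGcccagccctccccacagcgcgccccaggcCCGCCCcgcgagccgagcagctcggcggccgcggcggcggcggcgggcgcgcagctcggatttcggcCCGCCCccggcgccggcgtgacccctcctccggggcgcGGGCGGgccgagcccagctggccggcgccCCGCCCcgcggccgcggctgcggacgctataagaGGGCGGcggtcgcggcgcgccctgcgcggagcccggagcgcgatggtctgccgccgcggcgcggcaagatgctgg
Wnt5b, most upstream start, chr6:119544298-119544597, minus strand: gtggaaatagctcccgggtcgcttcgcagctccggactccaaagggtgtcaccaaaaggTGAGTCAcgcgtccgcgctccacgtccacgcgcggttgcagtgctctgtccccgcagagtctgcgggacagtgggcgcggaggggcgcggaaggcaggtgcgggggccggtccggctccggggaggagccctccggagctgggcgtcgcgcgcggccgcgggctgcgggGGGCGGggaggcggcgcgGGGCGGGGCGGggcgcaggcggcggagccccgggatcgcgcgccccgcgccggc
Wnt5b, most downstream start, chr6:119449337-119449636, minus strand: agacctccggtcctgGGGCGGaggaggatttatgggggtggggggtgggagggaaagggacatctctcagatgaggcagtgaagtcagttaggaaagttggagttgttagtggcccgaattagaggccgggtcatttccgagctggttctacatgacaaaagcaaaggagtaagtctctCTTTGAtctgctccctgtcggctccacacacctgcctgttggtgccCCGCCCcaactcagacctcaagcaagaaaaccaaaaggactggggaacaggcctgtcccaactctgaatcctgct
Axin2, chr11:108920099-108920398, plus strand: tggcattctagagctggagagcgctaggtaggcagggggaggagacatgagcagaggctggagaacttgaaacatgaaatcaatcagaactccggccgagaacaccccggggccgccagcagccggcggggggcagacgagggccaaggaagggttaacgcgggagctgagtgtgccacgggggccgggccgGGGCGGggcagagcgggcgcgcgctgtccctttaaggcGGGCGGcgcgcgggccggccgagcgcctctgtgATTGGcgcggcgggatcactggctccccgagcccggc
The Wnt9a window was 83.3% G and C against a median of 52.7% over 32851 windows, and held 5 GC boxes and the E-box. A GC box occurs in 35.7% of all windows and the E-box in 7.15%. The upstream Wnt5b window held the AP-1 letters, found in 7.81% of windows, at position −191 from the start. The downstream one held CTTTGA, found in 16.0% of windows, at position −71. Neither TCF/LEF core was found in the Axin2 window, which says only that these letters are not in these 300 bases. The third Wnt5b window held no match. Which Wnt5b start the fragments came from is not resolved by values per gene.

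In inverse co-culture at 72 h, 4 of the 9 members tested were called lower in co-cultured PSC than in control PSC and none was called higher, against 12.8% of all genes tested, 9.57% lower and 3.27% higher. The 4 included 3 of the 4 ligand genes tested. Wnt9a, a ligand gene known from joint and bone development, fell furthest. It read 7.49, 3.51 and 7.02 FPKM in the control PSC and 1.36, 1.28 and 1.24 FPKM in the co-cultured PSC. All 3 co-cultured libraries lay close together and below every control, and the log2 fold change was −1.80 (SE 0.29, adjusted p = 0.011), a 3.47-fold fall on the scale of log2(FPKM + 0.5). Wnt5b, a close relative of Wnt5a, read 4.88, 3.54 and 4.40 FPKM in control PSC and 1.62, 1.40 and 1.76 FPKM in co-cultured PSC. Its groups did not overlap, and the log2 fold change was −1.18 (SE 0.21, adjusted p = 0.015). Wnt5a read 96.8, 93.0 and 97.0 FPKM in control PSC and 69.8, 67.9 and 60.5 FPKM in co-cultured PSC. The fall was smaller on the log scale (−0.53, SE 0.09, adjusted p = 0.014) and was the largest of the ligand genes in FPKM, from a mean of 95.6 ± 2.23 to 66.1 ± 4.94 FPKM (SD, n = 3).

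Among the antagonists, Dkk3 read 125.5, 123.2 and 124.2 FPKM in control PSC and 80.8, 91.4 and 60.5 FPKM in co-cultured PSC at 72 h of inverse co-culture. The controls lay close together and above every co-culture, and Dkk3 fell by 0.70 on the log2 scale (SE 0.15, adjusted p = 0.025). Sfrp1 read 253, 207 and 138 FPKM in control PSC and 103, 119 and 38.7 FPKM in co-cultured PSC. Its groups did not overlap either, but the replicates spread widely and the difference did not pass the test (log2 fold change −1.31, SE 0.42, adjusted p = 0.076). It did with replicate numbers blocked (adjusted p = 0.030), although same-numbered libraries did not deviate together in the inverse model. The difference also passed without replicate 2 of the co-culture (−1.61, adjusted p = 0.047). It did not with any other library left out, with −0.80 (adjusted p = 0.063) without replicate 3 of the co-culture and an adjusted p of up to 0.21, and it reached an adjusted p of 0.40 when all 24 libraries shared 1 estimate of the spread. Sfrp2 read 92.8, 77.7 and 54.5 FPKM in control PSC and 41.0, 55.7 and 5.11 FPKM in co-cultured PSC. The groups overlapped, replicate 3 of the co-culture lay far below the other 2 libraries, and the difference did not pass the test (−1.65, SE 0.77, adjusted p = 0.19). Without that library the Sfrp2 difference was −0.61 (adjusted p = 0.12). With all 24 libraries in 1 model and replicate numbers blocked, which was tried after the data were seen, both Sfrp1 and Sfrp2 passed (adjusted p = 0.0083 and 0.0095). Dkk2 read 1.58, 1.29 and 2.43 FPKM in control PSC and 0.998, 1.16 and 4.12 FPKM in co-cultured PSC, where the highest and the lowest libraries were both co-cultures.

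Axin2 read 14.1, 11.9 and 17.1 FPKM in control PSC and 10.4, 8.82 and 12.8 FPKM in co-cultured PSC at 72 h of inverse co-culture, and the difference of −0.41 on the log2 scale did not pass the test (95% interval −0.84 to 0.02, adjusted p = 0.17). Wnt4, a ligand gene of kidney and gonad development, overlapped between the groups (−0.12, 95% interval −1.19 to 0.95, adjusted p = 0.88). Wnt2 went the other way. It read 0.633, 0.605 and 0.557 FPKM in control PSC and 1.51, 2.57 and 0.712 FPKM in co-cultured PSC, where all co-cultures lay above all controls. These values rest on 24 to 33 fragments in the controls and on 30 to 101 in the co-cultures, and Wnt2 was left out of the test because it exceeded 1 FPKM in fewer than 3 of the 6 libraries.

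These counts stood against a broad change. Of 13066 genes tested in inverse co-culture at 72 h, 12.8% were called. At an unadjusted p under 0.05, 32.2% of genes and 5 members differed. Groups that did not overlap, with the co-culture lower, were found in 28.8% of genes tested and in 5 members (Wnt5a, Wnt5b, Wnt9a, Sfrp1 and Dkk3), and with the co-culture higher in 9.53% of genes tested and in no member tested. The median log2 fold change was −0.70 over the 9 members tested and −0.16 over all genes tested. After median-ratio scaling of the libraries the median of all genes was −0.02, the share of higher genes among those called went from 25.4% to 50.3%, Wnt5a, Wnt5b and Wnt9a were still called, and Dkk3 was not (−0.55, adjusted p = 0.062). The calls of all 4 members were lost without replicate 1 of the control PSC (adjusted p from 0.051 to 0.087) and without its replicate 3 (0.062 to 0.094), with log2 fold changes from −1.66 for Wnt9a to −0.52 for Wnt5a. They were also lost when all 24 libraries shared 1 estimate of the spread (0.056 to 0.17), but not when replicate numbers were blocked in that model as well (0.0016 to 0.034). Those of Wnt5b and Dkk3 were lost without replicate 1 of the co-culture (adjusted p = 0.055 and 0.074), and that of Dkk3 without replicate 2 of the control PSC (0.064) or without the intensity trend (0.052). None of these alternatives turned the direction of the 4 members.

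Markers of other cells moved in the same libraries. The summed FPKM of 5 adipocyte markers, 4 of them above 1 FPKM in at least 1 library of either group, was 394 to 829 in control PSC and 22.7 to 94.0 in co-cultured PSC at 72 h of inverse co-culture. The sum of 8 macrophage markers was 118 to 221 in control PSC, with 7 above 1 FPKM, and 47.8 to 78.7 in co-cultured PSC, with 5 above 1 FPKM. The sum of 8 epithelial markers was 0 to 0.338 in control PSC and 1.504 to 8.17 in co-cultured PSC, with 0 and 3 of them above 1 FPKM in any library and with Epcam at 0 in all 6 libraries. The sum of 12 PSC and fibroblast markers was 21965 to 27968 in control PSC and 29698 to 35449 in co-cultured PSC. Col1a1, Col1a2 and Col3a1, the 3 collagen genes among them, held 81.7% to 91.8% of it, and the sum of the other 9 was 3229 to 4010 and 2843 to 4103. All co-cultures lay above all controls for 3 of the 12 (Col1a1, Col1a2 and Pdgfra; 9.53% of genes tested) and below them for Lum (28.8%), which read 38.5 to 56.1 FPKM in control PSC and 11.3 to 19.7 FPKM in co-cultured PSC. Dcn read 484 to 821 and 356 to 507 FPKM. The sum of 5 acinar markers was 15.3 to 18.1 in control PSC and 10.7 to 11.1 in co-cultured PSC, nearly all of it Cela1, with Cpa1, Prss2 and Amy2a5 at 0 in all 6 libraries. The sums of the endothelial, mesothelial and Schwann markers overlapped between the groups. At 24 h of inverse co-culture the epithelial sum was 1.84, 43.2 and 6.78 in the co-cultured PSC and 0.370 to 0.587 in control PSC, the macrophage sum was 76.3, 66.7 and 23.6 against 65.9 to 79.7, and the adipocyte sum was 79.7 to 182 against 153 to 235. The sum of 4 mesothelial markers was 30.5 to 33.8 in co-cultured PSC and 20.2 to 24.3 in control PSC, most of it Wt1, with Lrrn4 at 0 in all 6 libraries. The PSC and fibroblast sum was 27513 to 32558 against 24221 to 26662, but its markers went both ways. Col1a2, Col3a1 and Pdgfra were higher in all co-cultures than in all controls (7.38% of genes tested), and Acta2, Vim, Pdgfrb and Thy1 lower (13.8%). Col3a1 read 12036 to 12959 FPKM in co-cultured PSC and 7699 to 8591 FPKM in control PSC. Acta2 read 1253 to 1519 FPKM in co-cultured PSC and 2790 to 2922 FPKM in control PSC. The part of these shifts in the results for the members was not tested, and fewer cells of a type and less RNA per cell cannot be told apart in bulk libraries.

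**Figure D2:**
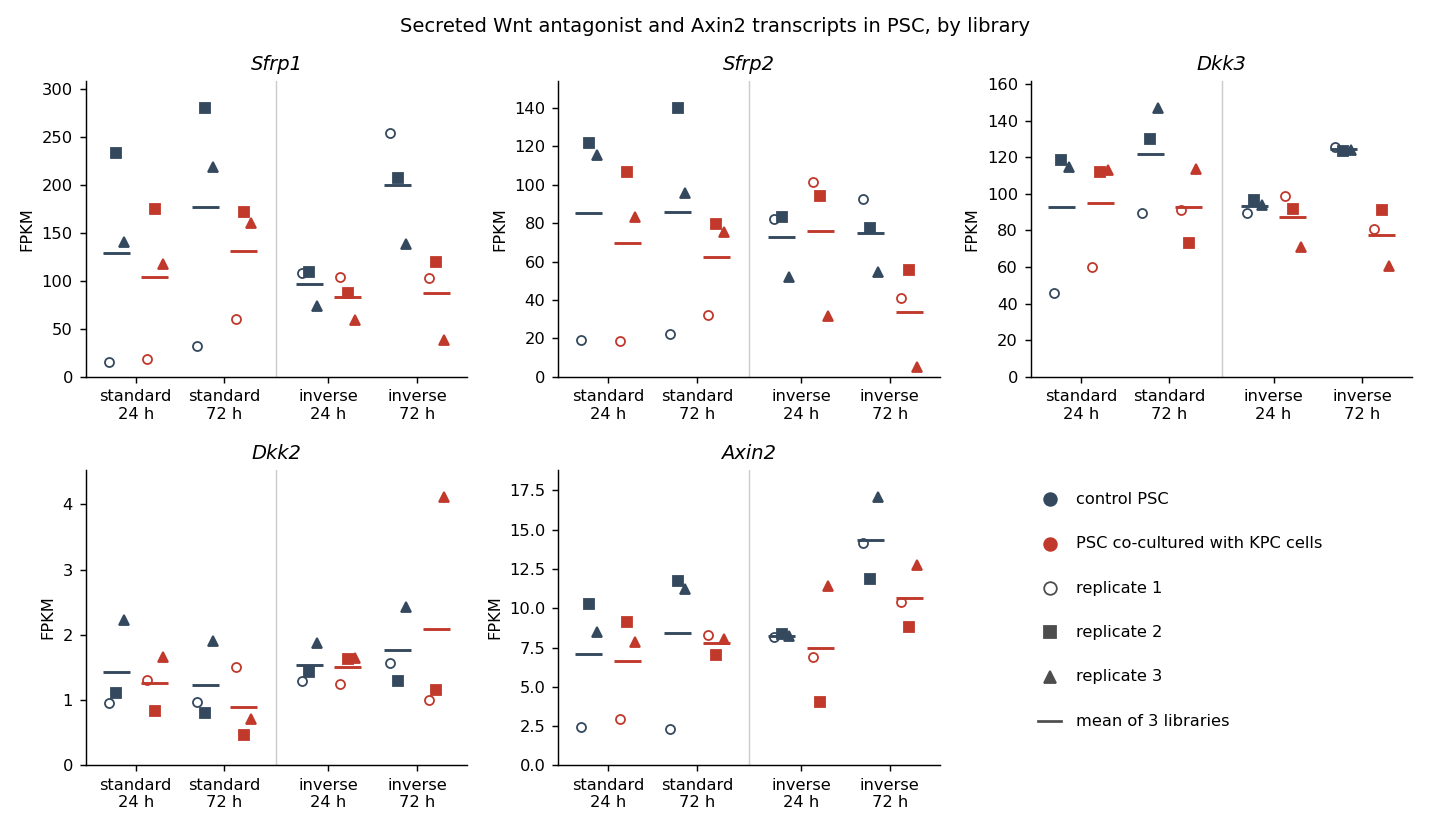
FPKM of the 4 secreted antagonist genes and of Axin2 in each of the 24 libraries, by model and time, with the same colours, marker shapes and mean lines as the plot of the ligand genes. Every axis starts at 0 and has its own scale. Replicate 1 of the standard model (open circles) lies far below replicates 2 and 3 for Sfrp1 and Sfrp2, and the Dkk3 controls of the inverse model at 72 h lie close together above all co-cultures.

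At 24 h of inverse co-culture, no member passed the test, against 2.47% of 12827 genes tested (1.08% higher and 1.39% lower). The direction of the ligand genes was mixed. Wnt9a read 3.23, 4.75 and 3.96 FPKM in control PSC and 3.09, 1.92 and 1.25 FPKM in co-cultured PSC (−0.84, SE 0.29, adjusted p = 0.21). Wnt5a read 89.2, 87.6 and 92.8 FPKM in control PSC and 85.4, 75.4 and 65.5 FPKM in co-cultured PSC (−0.26, SE 0.12, adjusted p = 0.34). In both genes the co-cultures lay below every control, as in 13.8% of all genes tested. Wnt4 read 6.55, 6.97 and 4.02 FPKM in control PSC and 10.0, 7.86 and 8.999 FPKM in co-cultured PSC (0.60, SE 0.21, adjusted p = 0.22). Wnt2 read 0.863, 1.06 and 0.445 FPKM in control PSC and 1.72, 1.76 and 1.38 FPKM in co-cultured PSC. In these 2 genes the co-cultures lay above every control. This held for 7.38% of all genes tested, and Wnt2 passed the filter on low values only through the co-cultures, so that its test is not used. Wnt5b read 3.52, 2.96 and 5.20 FPKM in control PSC and 3.01, 3.24 and 1.52 FPKM in co-cultured PSC, and its groups overlapped (−0.53, SE 0.30, adjusted p = 0.48). Replicate 3 lay furthest from the others in both groups. The intervals of Sfrp1 (−0.72 to 0.28), Dkk3 (−0.41 to 0.19) and Axin2 (−0.93 to 0.44) included 0, and the adjusted p of the other members lay between 0.71 and 0.99. At an unadjusted p under 0.05, Wnt4 and Wnt9a and 14.8% of all genes differed.

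**Figure D3:**
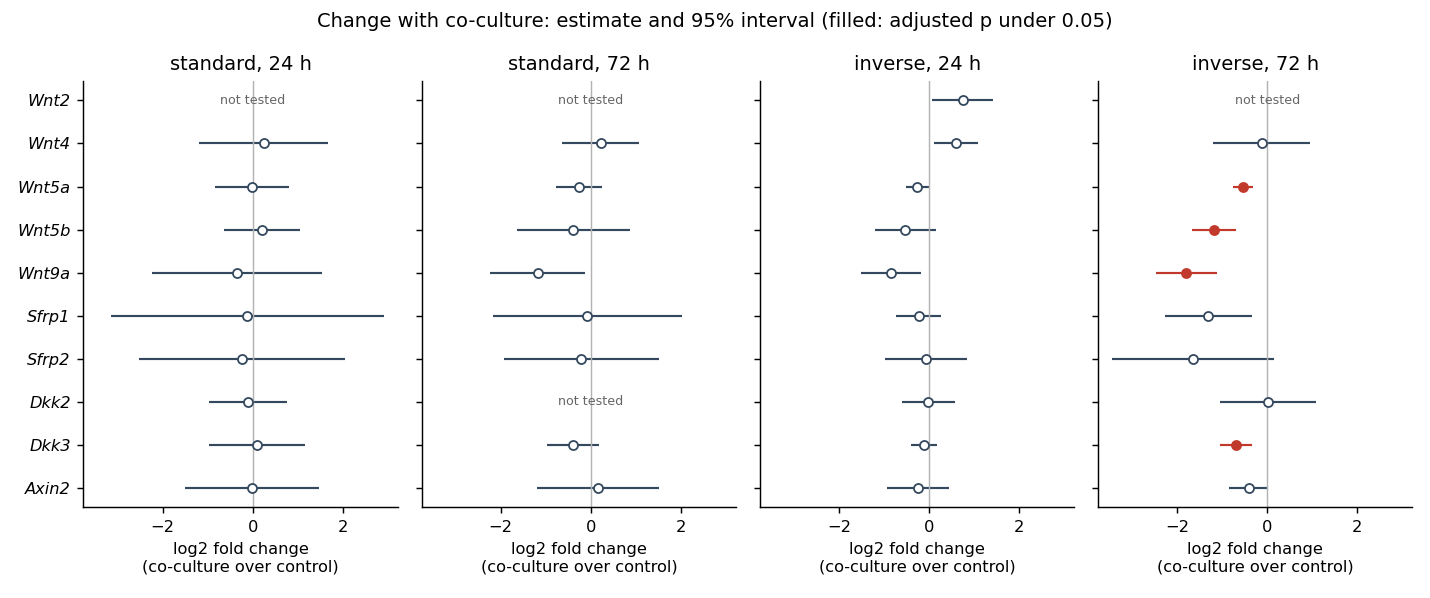
Change of the 10 members with co-culture in both models and at both times, as log2 fold change of co-cultured over control PSC with its 95% interval from limma. Filled red points passed an adjusted p of 0.05, and members left out by the filter are marked as not tested. The 4 calls (Wnt5a, Wnt5b, Wnt9a and Dkk3) are all lower and all in the inverse model at 72 h, and the widest interval is that of Sfrp1 in the standard model at 24 h.

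In standard co-culture, limma called 0 of 12859 genes at 24 h and 0 of 12863 at 72 h (0% of genes tested), and so no member. The paper's own test, made on counts, reported differentially expressed genes in this model at both times. At an unadjusted p under 0.05, 2.89% and 6.22% of genes differed, and of the members Wnt9a at 72 h. With replicate numbers blocked, 157 genes passed at 24 h and 1 at 72 h, none of them a member. With all 24 libraries in 1 model 5 and 36 genes passed, and 30 and 278 with replicate numbers blocked as well, again none of them a member. The log2 fold changes of the members tested had a median of −0.01 at 24 h and −0.24 at 72 h, against −0.01 and −0.09 for all genes tested. Wnt9a read 2.41, 6.73 and 5.40 FPKM in control PSC and 1.00, 1.73 and 2.72 FPKM in co-cultured PSC at 72 h. The co-culture was lower in each of the 3 pairs of same-numbered libraries, by 0.96, 1.70 and 0.87 on the log2 scale, while the groups overlapped because of replicate 1 of the control PSC (−1.18, SE 0.44, 95% interval −2.23 to −0.12, adjusted p = 0.77; 0.32 with replicate numbers blocked; 0.066 with all 24 libraries and blocked numbers). At 24 h Wnt9a was again lower in all 3 pairs, with log2 differences of −0.34, −0.39 and −0.28, as was Sfrp2, while Wnt2 and Wnt4 were higher in all 3. Of the genes tested, 20.7% were lower and 17.5% higher in all 3 pairs at 24 h, and 26% lower and 10% higher at 72 h. Wnt5a read 63.6, 83.1 and 107 FPKM in control PSC and 73.7, 58.1 and 75.0 FPKM in co-cultured PSC at 72 h (−0.27, SE 0.21, adjusted p = 0.86). Dkk3 read 89.4, 130 and 147 FPKM in control PSC and 91.2, 72.9 and 114 FPKM in co-cultured PSC at 72 h (−0.39, SE 0.24, adjusted p = 0.80). In both genes replicates 2 and 3 were lower and replicate 1 higher in co-culture. Wnt2 read 0.448, 0.303 and 0.642 FPKM in control PSC and 1.74, 1.25 and 0.975 FPKM in co-cultured PSC at 24 h. Its groups did not overlap, which held for 3.35% of the genes tested, Wnt2 not among them, on 12 to 26 fragments in the controls and 45 to 74 in the co-cultures, and it was left out of the test. No other member had groups that did not overlap in the standard model, against 4.38% of genes with the co-culture lower at 24 h and 3.36% higher and 9.78% lower at 72 h.

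The distance of replicate 1 from the other standard libraries was largest in the SFRP genes. Sfrp1 lay between 14.98 and 59.7 FPKM in replicate 1 of the 4 standard groups and between 118 and 280 FPKM in replicates 2 and 3. Sfrp2 lay between 18.4 and 32.3 FPKM in replicate 1 and between 75.2 and 140 FPKM in the others. Sfrp1 and Sfrp2 are the 2 members whose ranges in replicate 1 lay wholly below those of the others, which held for 9.65% of genes above 1 FPKM in at least 3 libraries. The mean log2 difference of replicate 1 from the others was −2.72 for Sfrp1, −2.14 for Sfrp2, −1.49 for Wnt9a and −1.27 for Axin2. At 72 h, replicate 1 was also the pair in which Axin2 rose, from 2.32 to 8.32 FPKM, while it went from 11.7 to 7.02 and from 11.2 to 8.03 FPKM in the other pairs. The adipocyte marker sum was 23.2 to 68.9 in replicate 1 and 130 to 434 in replicates 2 and 3 of the standard groups. The mesothelial marker sum was 13.4 to 24.5 in replicate 1 and 32.1 to 44.8 in the others, the macrophage sum was lowest in replicate 1 of all 4 groups and 350 to 1136 in replicate 2, and Acta2, the smooth muscle actin gene of activated stellate cells, read 1194 to 5963 FPKM in replicate 1 and 476 to 1509 FPKM in the others. The part of these values was not tested. Without replicate 1 of all standard groups, which was tried after the data were seen, 0 of 12488 genes were called at 24 h and 0 of 12455 at 72 h, and so no member was. The difference at 72 h was then −1.28 for Wnt9a (adjusted p = 0.22), −0.51 for Wnt5a (0.32) and −0.60 for Dkk3 (0.32).

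**Figure D4:**
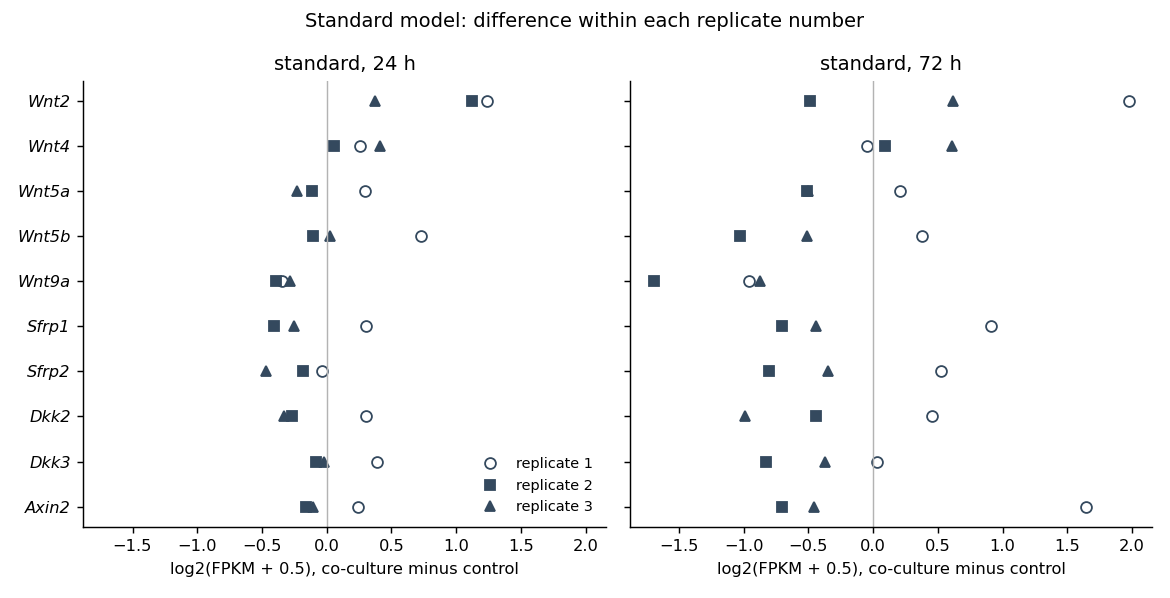
Difference of log2(FPKM + 0.5) between co-cultured and control PSC within each replicate number of the standard model, at 24 h and 72 h, for the 10 members. Each point is 1 pair of same-numbered libraries. Wnt9a lies left of 0 in all 3 pairs at both times, and replicate 1 (open circles) lies to the right of the other 2 pairs for Wnt2, Wnt5a, Wnt5b, Sfrp1, Sfrp2, Dkk2, Dkk3 and Axin2 at both times.

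A difference between the models was not shown. The test of the difference, inverse minus standard effect, called 0 genes at 24 h and at 72 h (0% of 14452 genes; 1.26% and 3.47% at an unadjusted p under 0.05, no member among them). At 72 h the difference was −1.44 for Sfrp2 (95% interval −4.03 to 1.16), −1.23 for Sfrp1 (−3.95 to 1.499), −0.80 for Wnt5b (−1.96 to 0.36), −0.62 for Wnt9a (−2.24 to 1.00), −0.31 for Dkk3 (−1.21 to 0.59) and −0.26 for Wnt5a (−0.95 to 0.42), with an adjusted p of 1.00 for each after rounding. These intervals and those of Wnt4, Dkk2 and Axin2 included 0, and the Dkk2 estimate was above 0. The test of Wnt2 is not used, since 9 of the 10 libraries in which it exceeded 1 FPKM were co-cultures. With replicate numbers blocked, 16 genes passed at 72 h, all lower and none of them a member, and the adjusted p of the 6 members with values above lay between 0.43 and 0.81. The comparison pools the spread of all 24 libraries, including replicate 1 of the standard groups. Its Sfrp1 and Sfrp2 estimates at 72 h also draw on replicate 3 of the inverse co-culture, the lowest of its group with 38.7 and 5.11 FPKM. No member was called without that library. Without replicate 1 of all standard groups the estimates were smaller in size, −1.07 for Sfrp2, −0.73 for Sfrp1, −0.42 for Wnt5b, −0.51 for Wnt9a, −0.099 for Dkk3 and −0.025 for Wnt5a. The members called in the inverse model at 72 h are therefore not shown to respond differently there.

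Between 24 h and 72 h the control PSC of the inverse model themselves changed. Of 13092 genes, 19.2% were called (10.2% higher at 72 h), and of 9 members tested 3 were called, all higher. Axin2 went from 8.16, 8.35 and 8.23 FPKM at 24 h to 14.1, 11.9 and 17.1 FPKM at 72 h (log2 fold change 0.75, SE 0.15, adjusted p = 0.010). Sfrp1 went from 108, 109 and 73.3 FPKM to 253, 207 and 138 FPKM (1.02, SE 0.23, adjusted p = 0.016). Dkk3 went from 89.4, 96.9 and 93.7 FPKM to 125.5, 123.2 and 124.2 FPKM (0.41, SE 0.08, adjusted p = 0.0092). In these 3 genes and Wnt5a all libraries at 72 h lay above those at 24 h, as in 22.8% of all genes, and no member lay wholly below, against 16.9%. At an unadjusted p under 0.05, 34.7% of genes and the same 3 members differed. These calls held with each of the 6 libraries left out. They were lost when all 24 libraries shared 1 estimate of the spread (adjusted p from 0.45 to 0.57), and that of Sfrp1 also without the filter on low values (0.063). The adipocyte marker sum of these controls was 153 to 235 at 24 h and 394 to 829 at 72 h. Their macrophage sum was 65.9 to 79.7 and 118 to 221. The acinar sum was 9.30 to 15.2 and 15.3 to 18.1, and the epithelial sum 0.370 to 0.587 and 0 to 0.338. Among the PSC and fibroblast markers, Acta2, Vim, Des and Thy1 were lower in all libraries at 72 h than at 24 h, and Col3a1 and Pdgfra higher. Acta2 read 2790 to 2922 FPKM at 24 h and 763 to 1347 FPKM at 72 h. The part of these markers in the change was not tested. Wnt5a (0.09, adjusted p = 0.46) and Wnt9a (0.49, adjusted p = 0.24) did not pass the test; without replicate 2 of the control PSC at 72 h Wnt9a did (0.80, adjusted p = 0.027). In the standard controls 0 of 12963 genes were called over time (0%; 0.98% at an unadjusted p under 0.05, no member). No member had groups that did not overlap there, against 1.74% of genes higher and 2.84% lower.

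The same 72 h controls stand behind the co-culture effect, so both results are given side by side. Co-cultured PSC of the inverse model at 72 h held Dkk3 at 60.5 to 91.4 FPKM, next to 89.4 to 96.9 FPKM in the 24 h controls and 71.2 to 98.7 FPKM in the 24 h co-cultures. Sfrp1 stood at 38.7 to 119 FPKM in 72 h co-cultures, at 73.3 to 109 FPKM in 24 h controls and at 59.4 to 104 FPKM in 24 h co-cultures. Axin2 stood at 8.82 to 12.8, 8.16 to 8.35 and 4.03 to 11.4 FPKM in these groups. For Wnt5a, Wnt5b and Wnt9a the 72 h co-cultures (60.5 to 69.8, 1.40 to 1.76 and 1.24 to 1.36 FPKM) lay below the 24 h controls (87.6 to 92.8, 2.96 to 5.20 and 3.23 to 4.75 FPKM) and overlapped the 24 h co-cultures (65.5 to 85.4, 1.52 to 3.24 and 1.25 to 3.09 FPKM). Whether the co-culture effect itself differed between 72 h and 24 h in the inverse model was tested over its 12 libraries, and 0 of 13722 genes passed (0%; 10.7% at an unadjusted p under 0.05, among them Wnt9a and Dkk3). The difference between times was −0.96 for Wnt9a (95% interval −1.89 to −0.02, adjusted p = 0.45), −0.59 for Dkk3 (−1.04 to −0.13, adjusted p = 0.37), −1.08 for Sfrp1 (−2.22 to 0.06, adjusted p = 0.49), −1.57 for Sfrp2 (−3.70 to 0.56, adjusted p = 0.58), −0.65 for Wnt5b (−1.47 to 0.16, adjusted p = 0.55) and −0.27 for Wnt5a (−0.59 to 0.04, adjusted p = 0.51). Here too the Sfrp1 and Sfrp2 estimates draw on the low replicate 3 of the 72 h co-culture (38.7 and 5.11 FPKM), without which no member was called. The test between times in the standard model called 0 of 13694 genes (0%, with 1.03% at an unadjusted p under 0.05, no member).

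Of 82 other genes of the pathway in 7 hand-written lists, 16 were called in at least 1 co-culture effect, all in the inverse model. The lists were chosen with earlier results of these data known, so their shares of calls cannot test the pathway against all genes. In inverse co-culture 53 of the 82 were tested at 24 h, where 4 were called (7.55%, against 2.47% of all genes tested), and 52 at 72 h, where 16 were called (30.8%, against 12.8% of all genes tested, 9.57% lower and 3.27% higher). The 12 with the smallest adjusted p are described. Frzb and Wnt11, an antagonist and a ligand gene, rose, while the members called in both classes fell. Frzb, which encodes a further secreted Frizzled-related protein, rose in inverse co-culture from 11.5, 13.98 and 9.83 to 38.0, 36.4 and 40.9 FPKM at 72 h (1.68, SE 0.14, adjusted p = 0.0031) and already at 24 h (1.03, adjusted p = 0.0079). It was also higher in all co-cultures than in all controls of the standard model at both times, where it did not pass the limma test (1.096 and 1.15, adjusted p = 1.00 and 0.66). The paper lists Frzb among the genes that its own test on counts called in standard co-culture at 72 h. The difference between the models was called by limma for neither Frzb nor Wnt11. Wnt11, a ligand gene of non-canonical signalling, rose in inverse co-culture at 24 h (1.102, adjusted p = 0.026) and 72 h (1.38, adjusted p = 0.042). It read 1.42, 1.45 and 2.86 FPKM in control PSC and 4.44, 4.16 and 9.05 FPKM in co-cultured PSC at 72 h. Of the 14 antagonist genes 6 were tested at 72 h, of which Frzb rose and Dkk3 fell. Of the 19 ligand genes 7 were tested, of which Wnt11 rose and Wnt5a, Wnt5b and Wnt9a fell.

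On the receiving side, 14 of 18 Frizzled and co-receptor genes were tested in inverse co-culture at 72 h, of which 2 rose and 3 fell. Fzd4, the receptor gene known from retinal vessels, fell from 48.9, 42.3 and 48.8 to 12.6, 18.03 and 12.2 FPKM (−1.69, SE 0.16, adjusted p = 0.0036). Fzd5 fell at 24 h (−1.17, adjusted p = 0.0076) and 72 h (−0.90, adjusted p = 0.049), and Fzd8 fell at 72 h (−0.52, adjusted p = 0.023). Ror2, the gene of a receptor tyrosine kinase that binds WNT5A, rose by 0.44 (adjusted p = 0.039), and Ptk7, the gene of a pseudokinase co-receptor, by 0.66 (adjusted p = 0.012). Of 9 genes of the R-spondin axis, whose receptors keep Frizzled proteins at the cell surface, 5 were tested and 2 fell, Lgr4 (−1.05, adjusted p = 0.015) and Rspo3. Of 21 intracellular genes, 19 were tested and 3 fell (Tcf7l1, Tcf7l2 and Bcl9l), a share of 15.8% that is near the 12.8% of all genes called. Rspo3 and these 3 genes, with log2 fold changes from −0.83 to −0.36 and adjusted p from 0.045 to 0.049, are named because of their small count, after their values were seen. None of the 2 genes of Wnt secretion was called.

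Of 16 target and feedback genes, 10 were tested in inverse co-culture at 72 h, of which 1 rose and 3 fell (12.8% of all genes were called, 3.27% higher and 9.57% lower), and Axin2 was not called. Apcdd1, which encodes a membrane-bound Wnt inhibitor, fell from 52.7, 39.4 and 42.2 to 13.8, 18.6 and 13.2 FPKM (−1.53, SE 0.17, adjusted p = 0.0045). Nkd1, a feedback inhibitor that binds Dishevelled, fell by 0.48 (adjusted p = 0.028). Ccn5, the gene of a matricellular protein, fell at 24 h (−1.13, adjusted p = 0.019) and 72 h (−1.28, adjusted p = 0.015). Myc, a growth regulator with many inputs besides Wnt signalling, rose from 14.9, 16.1 and 13.4 to 32.3, 27.4 and 47.6 FPKM (1.21, SE 0.20, adjusted p = 0.011). Of these 12 genes, Frzb, Fzd4 and Apcdd1 kept their calls at 72 h with each of the 6 libraries left out, as did Frzb and Fzd5 at 24 h. The other 9 lost their calls at 72 h without at least 1 library, with adjusted p up to 0.14. Without replicate 3 of the control PSC this held for Myc (0.058), Ptk7 (0.059), Ccn5, Fzd8, Nkd1, Ror2, Wnt11 and Fzd5, and without its replicate 1 for Lgr4 (0.058), Fzd8, Nkd1, Ror2, Wnt11 and Fzd5. Without replicate 2 of the control PSC it held for Fzd8, Nkd1, Ror2, Wnt11 and Fzd5, and without replicate 1 of the co-culture for Ccn5, Lgr4, Fzd8, Nkd1, Ror2, Wnt11 and Fzd5. Nkd1, Ror2 and Fzd5 lost their calls without replicate 2 of the co-culture, and Ror2, Wnt11 and Fzd5 without its replicate 3. At 24 h Wnt11 and Ccn5 lost their calls without any 1 of the control PSC or replicate 2 of the co-culture (0.059 to 0.11). With all 24 libraries in 1 model, all 4 calls at 24 h were lost (Frzb 0.12, Wnt11 0.14, Fzd5 0.21 and Ccn5 0.25), as were Nkd1, Ror2 and Fzd5 at 72 h. With replicate numbers blocked, Fzd8, Nkd1, Ror2 and Fzd5 lost their calls at 72 h (0.059 to 0.10) and Ccn5 and Wnt11 at 24 h (0.069 and 0.11), and after median-ratio scaling Fzd8, Nkd1 and Fzd5 did at 72 h (0.083 to 0.098). Without the filter on low values Ror2, Wnt11 and Fzd5 lost their calls at 72 h (0.057 to 0.11) and Ccn5 and Wnt11 at 24 h (0.096 and 0.11), without the intensity trend Nkd1, Ror2, Wnt11 and Fzd5 did at 72 h (0.052 to 0.068) and Ccn5 at 24 h (0.070), and Fzd5 did at 72 h with a pseudocount of 0.1 (0.05008). With all 24 libraries and the block, Wnt11 lost its call at 24 h (0.0503).

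**Figure D5:**
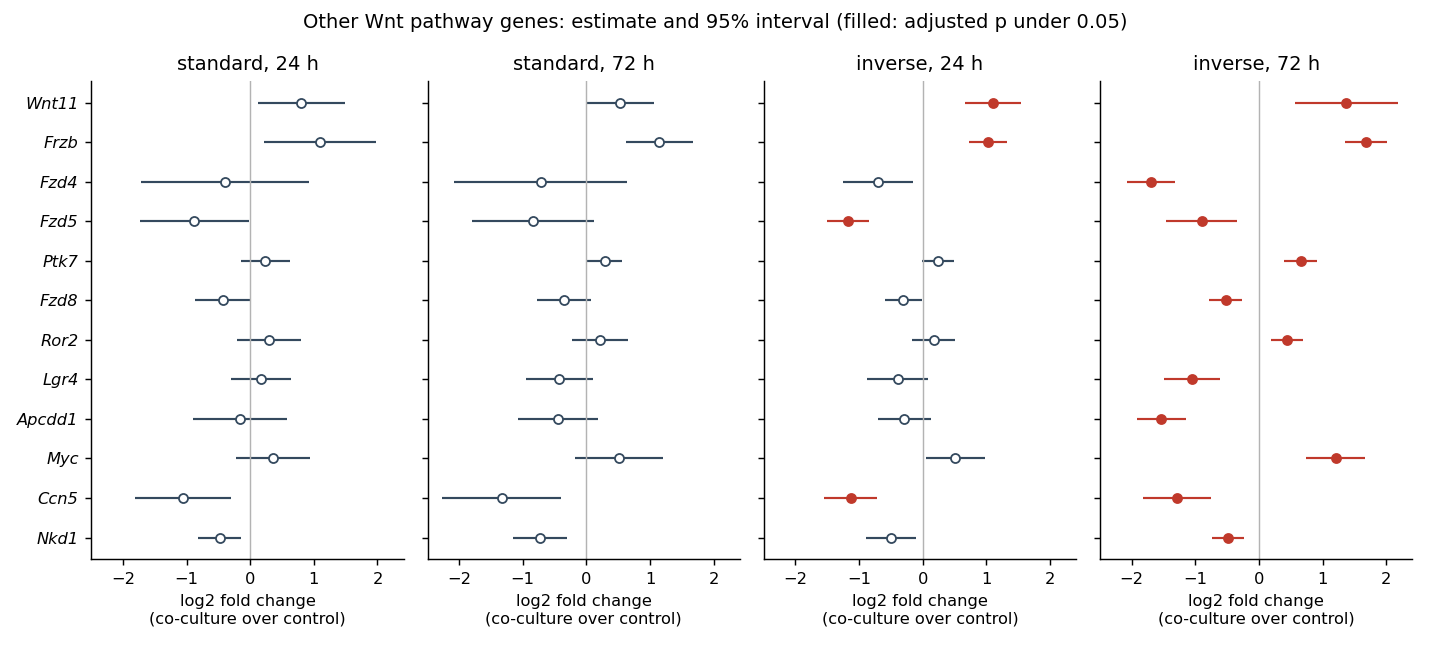
Change of the 12 other Wnt pathway genes with co-culture in both models and at both times, as log2 fold change of co-cultured over control PSC with its 95% interval from limma, ordered by ligand, antagonist, receptor, R-spondin and target genes. Filled red points passed an adjusted p of 0.05. Calls by limma are found in the inverse model only, where Frzb (1.68) and Wnt11 (1.38) lie right of 0 and Fzd4 (−1.69) and Apcdd1 (−1.53) left of it at 72 h.

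The genes whose pattern over the 24 libraries was most like that of 3 members were found by Pearson correlation of log2(FPKM + 0.5) over 14451 genes. These members had the largest estimated log2 fold changes in size in inverse co-culture at 72 h. Only Wnt9a among them passed the test. Sfrp1 (adjusted p = 0.076) and Sfrp2 (0.19) did not, and the Sfrp2 estimate was much smaller without 1 library, as given above. The genes most like Wnt9a were Adam17 (r = 0.94), Appl2 (0.94) and Vcam1 (0.94). For Sfrp2 they were Smoc2 (0.92), Draxin (0.92) and Lrrn2 (0.92), and for Sfrp1 they included Sesn3 (0.98) and Slfn5 (0.97). The points share groups, replicate numbers and, in the standard model, the distance of replicate 1, so these values are a description of these libraries.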

How the data were processed

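RNA of PSC was sequenced in 24 libraries, 8 groups of 3. Per the study's methods and notes, the authors selected mRNA with poly-T beads, aligned read pairs to GRCm38 with HISAT2 2.0.5, counted fragments per gene with featureCounts 1.5.0-p3 and deposited FPKM values. The annotation release is not given in the sources used here. Symbols came from GENCODE M21, which matched 53706 of 53801 genes. Fragments were recovered from the FPKM values, with whole fragments (within 0.003) in all libraries for 28756 of 28892 genes above 0 (99.5%).

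FPKM values were compared on log2(FPKM + 0.5) with limma 3.58.1 in R 4.3.3 (moderated test with trend, two-sided), for genes above 1 FPKM in at least 3 of the libraries compared, with Benjamini-Hochberg adjustment over all genes tested. Each co-culture effect and each time effect used its 6 libraries, the difference between times the 12 of its model and the difference between models all 24. An adjusted p under 0.05 was called. A single-gene exact permutation test of 3 against 3 cannot go below 0.1. The replicate numbers deviated together in the standard model (correlation of same-numbered deviations from 0.48 to 0.82 in every pair, over genes) and not in the inverse model (−0.17 to 0.15). The members and lists were chosen with earlier results of these data known. The genes named were all members, up to 12 other called pathway genes by adjusted p, and the 3 genes most like each of 3 members. Some items are not reported here. The fits were tested on simulated data. Plots used Python 3.11.15 and matplotlib 3.10.9.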

Additional observations from a re-analysis of the deposited data

How the results depend on the processing

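Alternatives were pseudocounts of 1 and 0.1, no filter, a mean FPKM above 5, median-ratio scaling, no intensity trend, a replicate block, all 24 libraries in one model, limma's voom on the recovered fragments and each library left out, with 2 more added after the data were seen (without replicate 1 of all standard groups, and all 24 libraries with a replicate block). Of 964 values for 53 single-gene results, 857 kept direction and side of the threshold, 91 lost a call, 5 gained one and 11 changed sign, none of a called gene. Only 23 of the 53 results were called and could lose a call, and 8 of these 23 kept it with every single library left out. Of 4 members called in inverse co-culture at 72 h, 2 remained called with no filter (Wnt5a and Wnt9a), 2 with a mean FPKM above 5 (Wnt5a and Dkk3, as Wnt5b and Wnt9a were not tested), 3 with no trend (without Dkk3, adjusted p = 0.052) and 0 with all 24 libraries. With 1 library left out between 0 and 5 members were called there, the fifth being Sfrp1. With all 24 libraries 0 of 3 members were called over time in inverse controls. The cause was not tested. In inverse co-culture at 72 h Dkk2 turned to −0.0038 with a pseudocount of 0.1 and to −0.056 with voom, and ranged from −0.49 to 0.32 with 1 library left out. Wnt4 turned to 0.011 with median-ratio scaling and ranged from −0.50 to 0.35. At 24 h, Axin2 ranged from −0.59 to 0.10 and Dkk3 from −0.21 to 0.029 with 1 library left out. The replicate block changed the call of 1 member, Sfrp1 in inverse co-culture at 72 h (−1.31, adjusted p = 0.030), and moved the count of all genes called there from 1678 to 902, at 24 h from 317 to 88, in standard co-culture from 0 to 157 (24 h) and to 1 (72 h), and for the difference between models at 72 h from 0 to 16. The count of 1678 was 888 with no filter, 897 with all 24 libraries, 2672 with a block in addition, and 368 to 1637 with 1 library left out. The count of 317 was 50 with no filter, 98 with no trend, 526 with voom, 11 with all 24 libraries, 197 with a block in addition, and 67 to 412 with 1 library left out, and 55.1% rather than 43.8% of calls were higher after median-ratio scaling. Over time in inverse controls it was 1425 with no filter and 225 with all 24 libraries (26.2% higher rather than 52.9%) against 2516, and 1243 to 2369 with 1 library left out (1243 without replicate 2 of the 24 h control PSC). For the difference between times in the inverse model it was up to 75 with 1 library left out and 14 with voom against 0. With all 24 libraries and a block, Sfrp1 and Sfrp2 were called as well at 72 h (adjusted p = 0.0083 and 0.0095). Wnt2 and Dkk2 rest on few fragments, which limits their precision.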
